A study of Homo sapiens with 6 samples.

Results

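The Kruppel-like factor (KLF) genes KLF2, KLF3, KLF4, KLF5, KLF6, KLF7, KLF10, KLF11, KLF13 and KLF16 were examined in MCF10A cells after knockdown of DAB2IP. These 10 genes were taken by gene name from the 58735 genes of the deposited tables. MCF10A is an established, nonmalignant human breast epithelial line, grown with horse serum, insulin, epidermal growth factor, cholera toxin and hydrocortisone in both groups. The cells had received either a nontargeting siRNA pool (siControl, 3 libraries) or siRNA that targets DAB2IP (siDAB2IP, 3 libraries), and RNA was taken 48 hours after transfection. DAB2IP encodes a RasGAP, a protein that switches Ras off, and the comparison asks how its loss changed gene expression. A single siRNA reagent and a single cell line were used, and the labels do not say that the libraries came from separate cultures, so the p-values measure the spread between these libraries, which may be technical.

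Each library held between 16353783 and 21916062 counts, so that 3 counts, the most that an observed 0 leaves possible by counting error alone, corresponded to 0.137 to 0.183 CPM (counts scaled to library size). DAB2IP itself measured 103.1, 94.3 and 77.4 CPM in siControl replicates 1 to 3 and 27.5, 25.6 and 22.4 CPM in siDAB2IP replicates 1 to 3, a log2 fold change of −1.86 in edgeR's quasi-likelihood test. The labelled cell type was checked with 10 mammary basal markers, which summed to 12310 to 14960 CPM in siControl and 8806 to 10750 CPM in siDAB2IP, with 1 of them called higher and 4 called lower. Summed luminal markers ranged from 276.6 to 363.5 CPM over all libraries with PGR at 0, and summed leukocyte markers from 35.9 to 77.2 CPM with CD3E and TYROBP at 0. Summed fibroblast markers ranged from 162.7 to 292.7 CPM in siControl and from 146.3 to 205.7 CPM in siDAB2IP, and summed endothelial markers from 24.0 to 34.2 CPM and from 16.0 to 17.5 CPM. In bulk RNA, fewer cells of a type and less RNA per cell cannot be told apart.

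KLF proteins are transcription factors that bind GC-rich and CACCC sequences through zinc fingers at their C-terminal end, and the specificity proteins (SP) are their sister family. The N-terminal part sets what each does: KLF2, KLF4, KLF5, KLF6 and KLF7 carry activating regions, KLF3 recruits the corepressor CtBP, and KLF10, KLF11, KLF13 and KLF16 recruit the corepressor SIN3. In epithelia, KLF5 is known from dividing basal cells and KLF4 from cells that differentiate and leave the cycle, and several KLF genes respond quickly to serum, growth factors and TGF-β.

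The KLF genes covered a wide range of levels in control cells (the plot of FPKM by library). FPKM values (fragments scaled to gene length and library size) were used wherever genes are compared with each other. KLF5 stood highest at 47.1 ± 4.05 FPKM (SD, n = 3 siControl libraries), above 96.4% of protein-coding genes. KLF13 followed at 24.2 ± 1.77 FPKM, then KLF6 at 17.6 ± 2.05, KLF16 at 12.8 ± 0.640 and KLF10 at 11.9 ± 0.456 FPKM. These 5 genes stood in the upper part of all protein-coding genes, those without reads included, and KLF10, the lowest of them, was above 83.1% of them. KLF3 measured 7.74 ± 0.154 FPKM, KLF4 4.22 ± 0.658, KLF7 3.71 ± 0.177, KLF11 2.88 ± 0.325 and KLF2 0.290 ± 0.148 FPKM. Within siControl, the ranges of neighbours in this order did not overlap except those of KLF4 and KLF7. The sum over the 10 genes was 132.3 ± 3.04 FPKM in siControl and 112.3 ± 11.0 FPKM in siDAB2IP (n = 3 each; two-sided exact permutation test, p = 0.1, the smallest that 3 libraries against 3 allow).

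**Figure D1:**
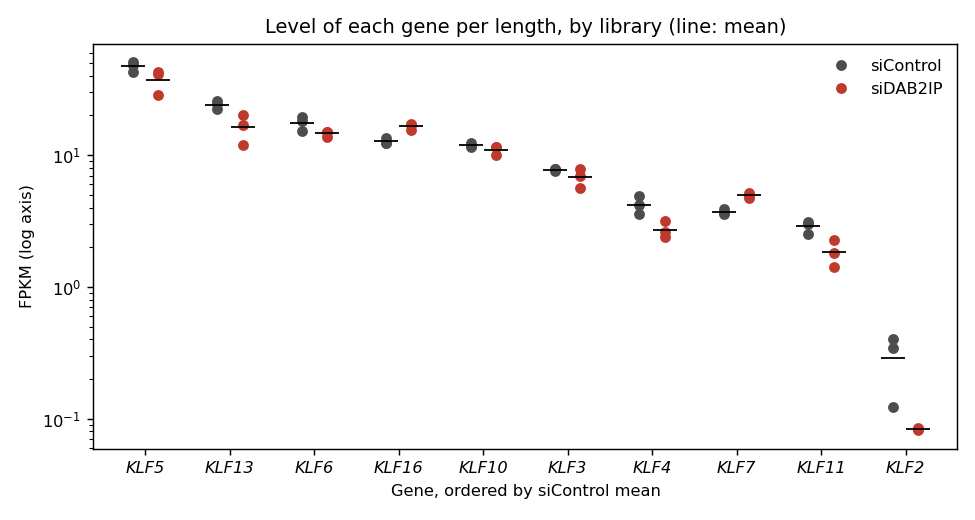
FPKM (log axis) of each KLF gene in each of 3 siControl (grey) and 3 siDAB2IP (red) libraries, ordered by the siControl mean, with lines at group means. KLF5 is highest at 47.1 FPKM and KLF2 lowest at 0.290 FPKM in siControl. The means of KLF4 and KLF7 exchange their order between the groups, from 4.22 and 3.71 FPKM to 2.71 and 4.96 FPKM, but their siControl ranges overlap. KLF6 and KLF16 also exchange their order, from 17.6 and 12.8 FPKM to 14.6 and 16.6 FPKM, without overlap in either group.

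Most promoter windows nearest to the principal start of these genes were GC-rich. RefSeq promoter windows (GRCh38.p14) were at hand for 8 of the 10 genes, all but KLF3 and KLF10, and for each the 250 bases before the start nearest to that of the principal transcript were searched on both strands. The GC box GGGCGG, a sequence that KLF and SP proteins bind, was found in 7 of the 8 windows, against 42.6% of 35116 RefSeq windows of the same length. KLF16 held 7 GC boxes, KLF2 and KLF4 4 each, KLF13 3, and KLF5, KLF6 and KLF11 2 each, whereas the KLF7 window nearest to the principal start held none. The GC content of the KLF16 window was 86.4%, higher than that of 99.8% of windows, and that of this KLF7 window was 58.0%, equal to the median of all windows. The windows of KLF16, which rose, KLF4, which fell, and KLF13, the SIN3-binding relative of KLF16 that moved the other way, are shown because they lie outside annotated exons. They are written 5′ to 3′ on the gene's strand with GC boxes in capitals (CCGCCC is the box on the other strand). The KLF4 window lies within the bounds of the gene, which begins farther upstream in a longer transcript.
KLF16 (chr19:1863580-1863829, minus strand): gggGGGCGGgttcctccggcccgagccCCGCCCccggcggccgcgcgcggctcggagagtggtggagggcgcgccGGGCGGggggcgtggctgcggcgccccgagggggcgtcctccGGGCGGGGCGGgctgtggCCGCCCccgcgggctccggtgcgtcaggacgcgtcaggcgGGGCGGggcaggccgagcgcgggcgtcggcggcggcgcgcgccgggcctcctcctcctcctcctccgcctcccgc
KLF4 (chr9:107489770-107490019, minus strand): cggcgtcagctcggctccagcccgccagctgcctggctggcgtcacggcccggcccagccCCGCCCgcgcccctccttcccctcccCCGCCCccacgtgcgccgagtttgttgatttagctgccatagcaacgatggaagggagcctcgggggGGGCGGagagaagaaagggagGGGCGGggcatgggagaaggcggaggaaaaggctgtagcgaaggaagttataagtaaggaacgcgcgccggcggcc
KLF13 (chr15:31326585-31326834, plus strand): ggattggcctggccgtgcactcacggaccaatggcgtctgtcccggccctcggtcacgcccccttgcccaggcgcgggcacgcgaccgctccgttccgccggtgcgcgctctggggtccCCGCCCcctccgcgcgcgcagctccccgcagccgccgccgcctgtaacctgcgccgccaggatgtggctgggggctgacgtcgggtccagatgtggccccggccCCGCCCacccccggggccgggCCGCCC
The KLF7 window without a GC box overlapped annotated exons over 238 of its 250 bases, the KLF5 window over 213 and the KLF11 window over 180. The KLF6 and KLF2 windows overlapped exons over 72 and 9 bases. The KLF11 window lies wholly downstream of the principal start. Of other starts, a KLF7 window held 4 GC boxes at 72.0% GC and a KLF11 window 6 at 74.4%. The remaining KLF7 windows held no GC box, at 41.6% and 43.2% GC, the latter with a CArG box. The other KLF5 window, at 40.8% GC, held no GC box but a TATA box. The CACCC box CACCC was present in 3 of the 8 windows (KLF5, KLF7 and KLF13) against 54.7% of all windows, and the E-box CACGTG in 3 (KLF4, KLF6 and KLF11) against 6.34%. None of these 8 windows held the TATA box TATAAA (10.7% of all windows), the AP-1 site TGACTCA (4.2%), an NF-κB site (9.96%) or a CArG box (1.16%). A binding sequence of MEF2, the factor through which ERK5 is known to induce KLF2, was searched for after the other motifs had been counted, and was found in the KLF2 window alone (2.8% of all windows). It reads CTAAATTTAG at chr19:16324706-16324715, beginning 120 bases before the start of KLF2. A match describes these letters only and does not show that a factor binds there.

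Among the KLF genes, KLF7 and KLF16 rose and KLF4 and KLF11 fell after DAB2IP knockdown in the fit without covariates. With the replicate number as a block, KLF13 fell as well (adjusted p = 0.00893 by edgeR). Of the 10 genes, 9 had enough counts to be tested, KLF2 being below the filter on low counts, and 4 of the 9 (44.4%) were called at an adjusted p under 0.05 in edgeR's quasi-likelihood test. Across all 15430 tested genes 14.2% were called, 6.55% rose and 7.65% fell. For 7 of the 9 genes (77.8%) the siControl and siDAB2IP values were fully separate, 2 being higher and 5 lower in siDAB2IP, against 35.9% of all tested genes (17.6% higher and 18.3% lower). KLF3 and KLF10 were the genes whose groups overlapped. The median log2 fold change was −0.27 over the 9 KLF genes and 0.01 over all tested genes, whose median absolute log2 fold change was 0.24.

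**Figure D2:**
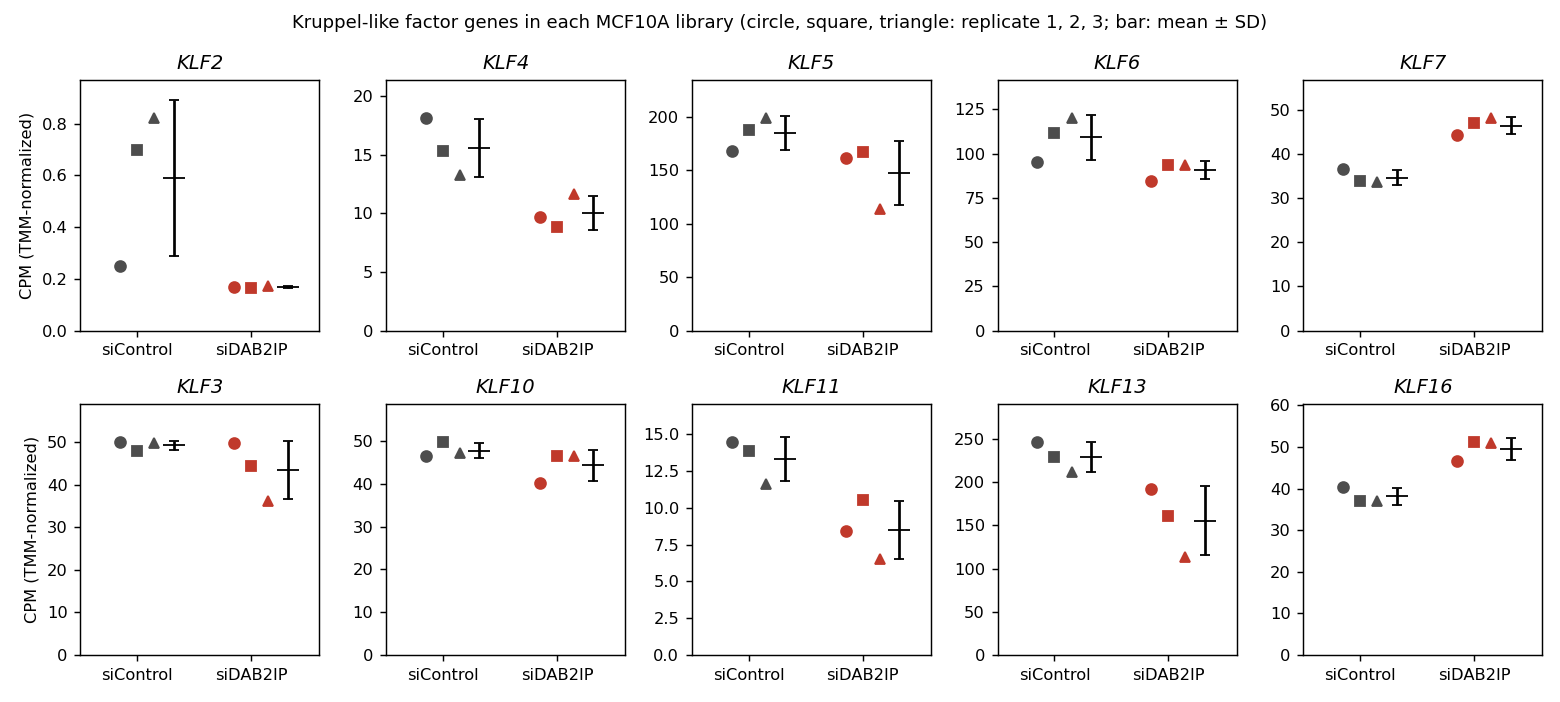
TMM-normalized CPM of the 10 KLF genes in each library (grey, siControl; red, siDAB2IP; circle, square and triangle are replicates 1, 2 and 3), with mean ± SD beside the points and a y axis that starts at 0 in each panel. KLF7 and KLF16 are higher in every siDAB2IP library, and KLF2, KLF4, KLF5, KLF6, KLF11 and KLF13 are lower in every one. The lowest value of KLF3, KLF5, KLF11 and KLF13 is in siDAB2IP replicate 3.

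KLF4 and KLF2, closely related activators, were both lower in siDAB2IP, although only KLF4 could be tested. KLF4 (ENSG00000136826, chr9:107484852-107490482, minus strand), known from barrier formation in skin and gut and as a reprogramming factor, measured 18.1, 15.3 and 13.3 CPM in siControl replicates 1 to 3 and 9.65, 8.81 and 11.7 CPM in siDAB2IP replicates 1 to 3. All siDAB2IP libraries lay under all siControl libraries, and the gap was narrowest between the replicates numbered 3. KLF4 fell to 0.645 of its siControl level (log2 fold change −0.63, SE 0.17, adjusted p = 0.0355 by edgeR). KLF2 (ENSG00000127528, chr19:16324817-16327874, plus strand), known from the lining of blood vessels and from resting T cells, had 4, 15 and 14 counts in siControl and 3 counts in each siDAB2IP library. The siDAB2IP counts were no more than an observed 0 leaves possible, and siControl replicate 1 stood near them. The 33 siControl and 9 siDAB2IP counts gave a ratio of 0.281 after scaling (95% exact interval 0.118 to 0.6, counting error only), or 0.589 ± 0.301 CPM against 0.170 ± 0.00392 CPM (SD, n = 3). A fit without the filter on low counts gave KLF2 an adjusted p of 0.113 by edgeR.

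KLF5 was the most abundant KLF transcript and did not pass the test. KLF5 (ENSG00000102554, chr13:73054976-73077542, plus strand) measured 167.8, 188.0 and 198.9 CPM in siControl and 161.8, 167.0 and 113.3 CPM in siDAB2IP. The first 2 siDAB2IP libraries lay just under siControl replicate 1 and the third lay far below. The fitted log2 fold change was −0.33 (SE 0.15, adjusted p = 0.168 by edgeR), and −0.17 without siDAB2IP replicate 3.

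The acidic activators KLF6 and KLF7 stood on opposite sides of their control levels. KLF7 (ENSG00000118263, chr2:207074137-207167267, minus strand), known from the outgrowth of neurons, measured 36.6, 33.8 and 33.6 CPM in siControl and 44.2, 47.0 and 48.2 CPM in siDAB2IP. Every siDAB2IP library was above every siControl library, and KLF7 rose 1.34-fold (log2 fold change 0.42, SE 0.10, adjusted p = 0.0212 by edgeR). KLF6 (ENSG00000067082, chr10:3775996-3785281, minus strand), known as a growth suppressor and an injury response gene, measured 95.4, 111.9 and 120.1 CPM in siControl and 84.6, 93.6 and 93.7 CPM in siDAB2IP. The groups did not overlap, but siControl replicate 1 was close to the siDAB2IP libraries, and KLF6 did not pass the test (log2 fold change −0.27, SE 0.11, adjusted p = 0.128 by edgeR).

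KLF3 and KLF10, both repressors, overlapped between the groups. KLF3 (ENSG00000109787, chr4:38664196-38701042, plus strand), the CtBP-binding member, measured 49.9, 47.9 and 49.7 CPM in siControl and 49.6, 44.4 and 36.2 CPM in siDAB2IP. Its siControl libraries were close together while siDAB2IP replicate 1 equalled them and replicate 3 was the lowest (log2 fold change −0.18, SE 0.12, adjusted p = 0.366 by edgeR), without which it was −0.064. KLF10 (ENSG00000155090), known as TGF-β inducible early gene 1, measured 46.5, 49.8 and 47.3 CPM in siControl and 40.2, 46.6 and 46.5 CPM in siDAB2IP. Here siDAB2IP replicate 1 was the low library, and the other two reached the control range (log2 fold change −0.11, SE 0.10, adjusted p = 0.528 by edgeR).

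KLF11, known as TGF-β inducible early gene 2 and the nearest relative of KLF10, fell. KLF11 (ENSG00000172059, chr2:10042849-10054836, plus strand) measured 14.5, 13.9 and 11.6 CPM in siControl and 8.41, 10.5 and 6.55 CPM in siDAB2IP. The groups did not overlap, and KLF11 fell to 0.638 of its siControl level (log2 fold change −0.65, SE 0.19, adjusted p = 0.0491 by edgeR), a p just under the threshold.

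KLF13 and KLF16, a pair of related SIN3-binding factors, differed in direction. KLF16 (ENSG00000129911, chr19:1852399-1863568, minus strand), known as a repressor in neurons, measured 40.4, 37.0 and 37.0 CPM in siControl and 46.5, 51.1 and 51.0 CPM in siDAB2IP. Every siDAB2IP library was above every siControl library, and KLF16 rose 1.30-fold (log2 fold change 0.38, SE 0.10, adjusted p = 0.0314 by edgeR). KLF13 (ENSG00000169926, chr15:31326855-31435665, plus strand), known from T cells and the heart, measured 246.2, 229.3 and 212.4 CPM in siControl and 192.2, 161.0 and 112.9 CPM in siDAB2IP. All siDAB2IP libraries lay below siControl but spread widely, and KLF13 missed the threshold (log2 fold change −0.56, SE 0.17, adjusted p = 0.053 by edgeR). With the replicate number as a block, its log2 fold change was −0.59 with an adjusted p of 0.00893, and KLF13 was called.

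The counts of KLF16 and KLF3 could include reads of overlapping genes. KLF16 overlaps the antisense gene AC012615.4 (chr19:1860250-1862019) over 1770 bases, and this gene held 62 to 123 counts per library, 6.72% to 14.0% of those of KLF16, with a log2 fold change of 0.15 (SE 0.28, adjusted p = 0.768 by edgeR). KLF3 overlaps KLF3-AS1 over 688 bases, which held 6 to 21 counts per library. The pseudogene KLF3P1 held 0 to 5 counts per library, and the pseudogenes of KLF2, KLF4 and KLF7 held 0. The strand used in counting is not given in the sources used here, so reads of KLF16 or KLF3 and of their antisense partners cannot be told apart.

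Ratios of related genes within a library do not depend on scaling between libraries, and 5 pairs were compared (the plot of ratios by library). The log2 ratio of KLF6 to KLF7 was 1.38, 1.73 and 1.84 in siControl and 0.94, 0.99 and 0.96 in siDAB2IP, a difference of −0.69 (SE 0.139). The log2 ratio of KLF13 to KLF16 was 2.61, 2.63 and 2.52 in siControl and 2.05, 1.66 and 1.15 in siDAB2IP, a difference of −0.97 (SE 0.263). In both pairs the groups did not overlap, since one partner was higher and the other lower in siDAB2IP. The log2 ratio of KLF10 to KLF11 was 1.69, 1.84 and 2.02 in siControl and 2.26, 2.15 and 2.83 in siDAB2IP, a difference of 0.56 (SE 0.233), also without overlap. For each of these 3 pairs the two-sided exact permutation test gave p = 0.1, the smallest possible, and 0.167 after Benjamini-Hochberg adjustment over the 5 pairs. The ratios of KLF2 to KLF4 (difference −0.99, SE 0.67) and of KLF4 to KLF5 (difference −0.29, SE 0.358) overlapped between the groups (exact p = 0.4 each). Of the summed FPKM of the 10 genes, KLF7 took 2.81% in siControl and 4.46% in siDAB2IP, and KLF16 took 9.67% and 14.9% (exact permutation p = 0.1 each).

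**Figure D3:**
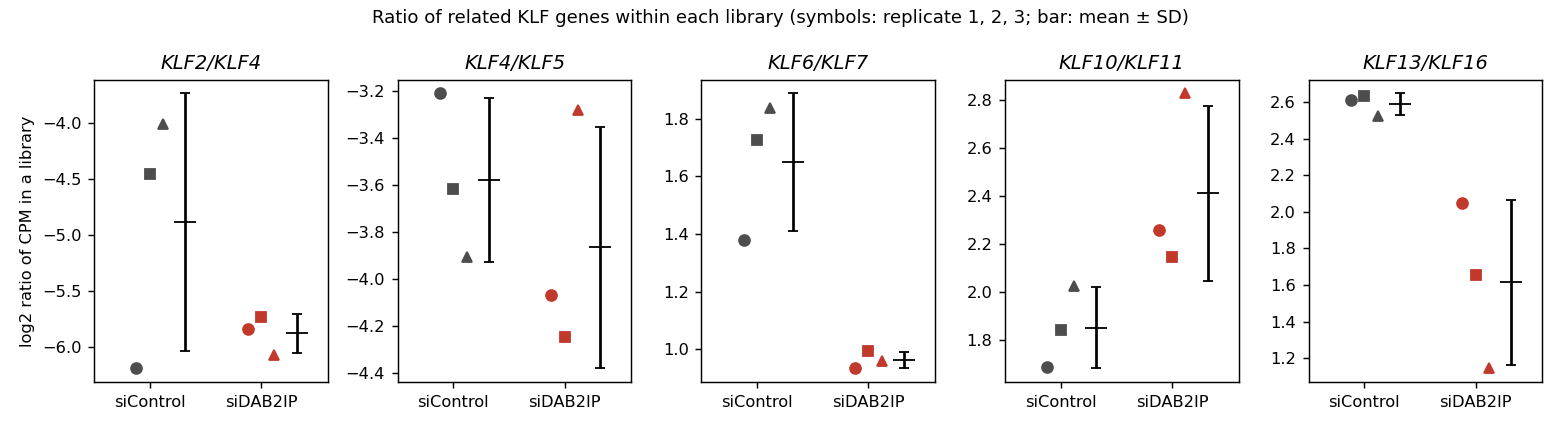
log2 ratio of the CPM of related KLF genes within each library (grey, siControl; red, siDAB2IP; circle, square and triangle are replicates 1, 2 and 3), with mean ± SD. KLF6/KLF7 and KLF13/KLF16 are lower in every siDAB2IP library (mean 1.65 to 0.96 and 2.59 to 1.62), KLF10/KLF11 is higher (1.85 to 2.41), and KLF2/KLF4 and KLF4/KLF5 overlap; the y axes do not start at 0.

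The 4 calls rested on few libraries. Without each library in turn, KLF7 stayed called in 3 of 6 fits, KLF4 in 2, and KLF11 and KLF16 in 1 each, and log2 fold changes kept their sign in all of them. KLF4 lost its call without siControl replicate 1 or 2 or siDAB2IP replicate 1 or 2 (adjusted p = 0.0924 to 0.118 by edgeR). KLF7 lost it without siControl replicate 2 or 3 or siDAB2IP replicate 2 (adjusted p = 0.0513 to 0.114). KLF11 kept its call only without siDAB2IP replicate 2, and KLF16 only without siDAB2IP replicate 3. KLF13 gained a call without siDAB2IP replicate 1 (log2 fold change −0.74, adjusted p = 0.0225) and without siDAB2IP replicate 3 (−0.38, adjusted p = 0.0356). At a stricter adjusted p under 0.01, none of the 9 genes was called by edgeR, whereas 6 of them had an unadjusted p under 0.05, as had 30.0% of all tested genes.

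The libraries with the same replicate number were also compared one by one. Each of the 9 tested KLF genes stood on the same side of its control in all 3 pairs, 2 higher and 7 lower, against 56.2% of all tested genes (27.9% higher and 28.3% lower). Some of these ratios were close to 0. The log2 ratio of KLF3 was −0.0076 for replicate 1 and that of KLF10 −0.0235 for replicate 3, and both genes overlapped between the groups. The log2 ratios of KLF13 were −0.36, −0.51 and −0.91 and those of KLF5 −0.05, −0.17 and −0.81 for replicates 1 to 3. Those of KLF7 were 0.27, 0.48 and 0.52 and those of KLF16 0.21, 0.47 and 0.46. KLF4 differed from these, at −0.91, −0.80 and −0.19. The difference of KLF4 was thus smallest, and those of KLF5 and KLF13 largest, in the pair numbered 3.

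The library with the lowest values of KLF3, KLF5, KLF11 and KLF13, siDAB2IP replicate 3, also had the lowest median of 25 cell cycle genes. This median deviated from the siControl mean by −2.11 on the log2 scale, compared with −0.96 in siDAB2IP replicate 1 and −0.47 in replicate 2 (the map of deviations by library). How many of all tested genes had their lowest value in siDAB2IP replicate 3 was not counted. All 25 cell cycle genes were lower in siDAB2IP, and 18 fell (7, 2, 3 and 5 without siControl replicates 1, 2 and 3 and siDAB2IP replicate 1, and 22 with the replicate block). Of all tested genes 7.65% fell. KLF13 deviated by −0.25, −0.51 and −1.02 and KLF5 by −0.19, −0.14 and −0.70 in siDAB2IP replicates 1 to 3, whereas KLF4 deviated by −0.68, −0.81 and −0.41. KLF3 deviated by 0.01, −0.15 and −0.44 and KLF11 by −0.66, −0.33 and −1.02. Between siDAB2IP replicates 1 and 2, KLF5 and KLF11 had the order of the cell cycle median, and KLF3 and KLF13 the opposite order. When both libraries numbered 3 were left out, the log2 fold change of KLF13 was −0.43 (adjusted p = 0.0159 by edgeR), and that of KLF16 was 0.34 with its call lost (adjusted p = 0.0608). The part of the cell cycle genes, or of what they reflect, in the values of the KLF genes was not tested.

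**Figure D4:**
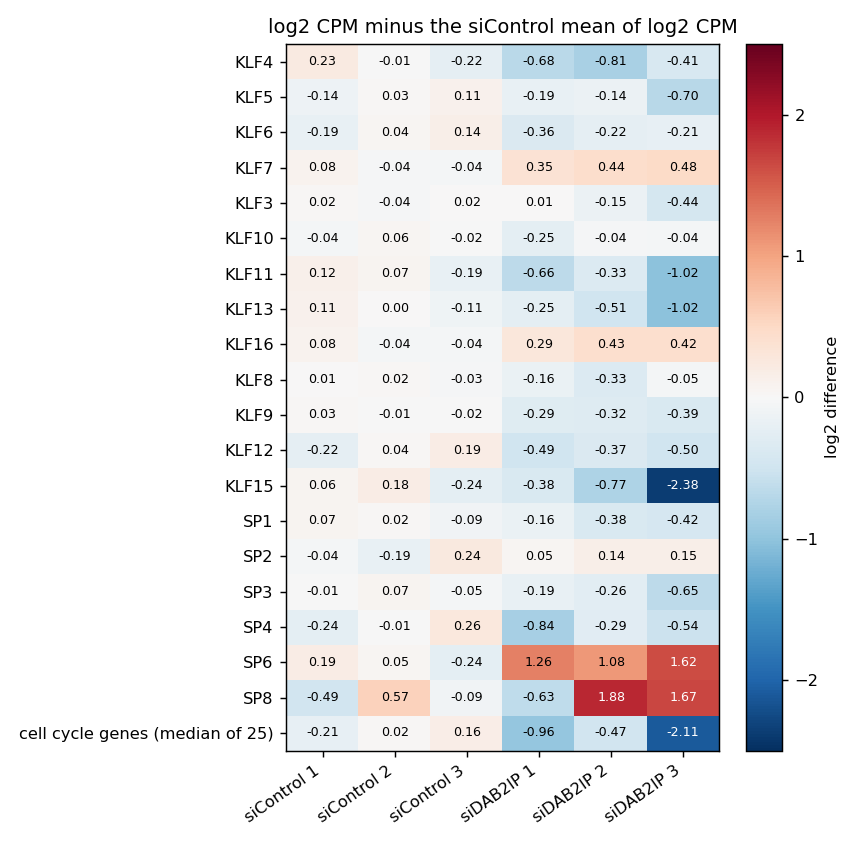
Difference of log2 CPM from the siControl mean of log2 CPM for the tested KLF and SP genes and the median of 25 cell cycle genes (rows) in each library (columns), red above and blue below 0 and values printed in each field. In siDAB2IP replicate 3, KLF11 and KLF13 are each at −1.02, KLF15 at −2.38 and the cell cycle median at −2.11, while KLF7 and KLF16 are above 0 in all 3 siDAB2IP libraries.

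The other KLF genes and the SP genes showed where the 10 stood in their families (the plot of fold changes). Of the 8 other KLF genes, KLF8, KLF9, KLF12 and KLF15 were tested and none was called, although all 4 were lower in siDAB2IP without overlap (18.3% of all tested genes) and 3 had an unadjusted p under 0.05 by edgeR (30.0% of all tested genes). KLF9, a glucocorticoid-responsive gene, had a log2 fold change of −0.33 (31.7 ± 0.513 to 25.1 ± 0.855 CPM; adjusted p = 0.0588 by edgeR), KLF12 of −0.46 and KLF8 of −0.18. KLF15 stood at −0.96 with a wide error (SE 0.376; 8.19 ± 1.21 to 4.20 ± 2.40 CPM; adjusted p = 0.116 by edgeR), and moved to −0.57 without siDAB2IP replicate 3 and to −1.37 without siDAB2IP replicate 1. With the replicate number as a block 2 of the 4 were called, KLF9 (adjusted p = 0.0476) and KLF15 (adjusted p = 0.027), and KLF15 was also called by DESeq2 (adjusted p = 0.0451). KLF1, KLF14, KLF17 and KLF18 had at most 2 counts in any library.

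Of the 9 SP genes, 6 were tested. SP6, known from skin appendages and teeth, rose (log2 fold change 1.33, SE 0.20, 4.40 ± 0.650 to 11.0 ± 2.17 CPM, adjusted p = 0.00372 by edgeR), a larger difference than that of any tested KLF gene. SP1 and SP3, the broadly expressed members that share GC boxes with KLF proteins, had log2 fold changes of −0.32 (143 to 115 CPM, adjusted p = 0.0683) and −0.36 (70.3 to 54.9 CPM, adjusted p = 0.0853 by edgeR). With the replicate number as a block SP1 and SP3 were called (adjusted p = 0.0286 and 0.032 by edgeR). SP4 had a log2 fold change of −0.55, SP8 of 1.21 and SP2 of 0.11, and none of these passed the test. SP8 had few counts, 5, 14 and 7 in siControl replicates 1 to 3 and 5, 29 and 24 in siDAB2IP replicates 1 to 3. It gained a call without siDAB2IP replicate 1, its lowest siDAB2IP library (1.66, adjusted p = 0.0471 by edgeR).

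**Figure D5:**
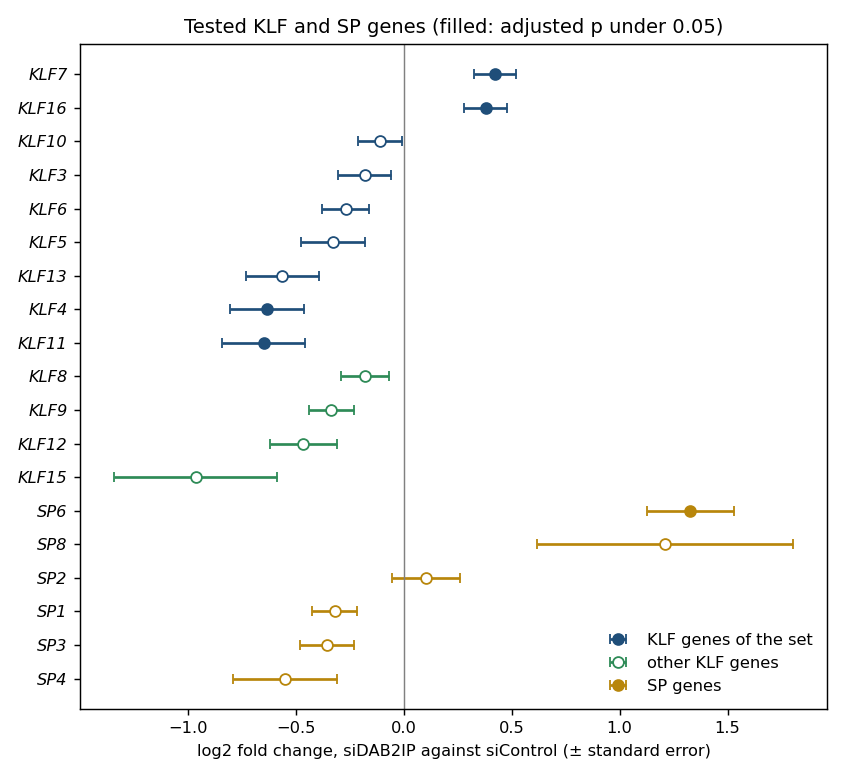
log2 fold change (siDAB2IP against siControl) ± standard error of the tested KLF genes described here (blue), other KLF genes (green) and SP genes (ochre), with filled points at an adjusted p under 0.05 by edgeR and a line at 0. KLF7 (0.42), KLF16 (0.38) and SP6 (1.33) are filled above 0, KLF4 (−0.63) and KLF11 (−0.65) below 0, and the other KLF genes are all open and below 0.

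The corepressors and coactivators that KLF proteins are known to use were also examined. Of 18 cofactor genes tested with edgeR, 0 rose and 3 fell, with a median log2 fold change of 0.01. Of all tested genes 14.2% were called (6.55% rose and 7.65% fell), so most genes outside this list were without a call too. 6 had an unadjusted p under 0.05 (30.0% of all tested genes had one), DESeq2 also called 0 higher and 3 lower, and the replicate block as well as the fit without the filter called 0 higher and 4 lower. CTBP1 (log2 fold change 0.09) and CTBP2 (0.25), the partners of KLF3, did not pass the test without the replicate block. Nor did SIN3A (−0.40, adjusted p = 0.0806 by edgeR) and SIN3B (0.13), the partners of KLF10, KLF11, KLF13 and KLF16. Their values with the block are not given here. SAP30, a subunit of the SIN3 complex, fell from 15.7 to 10.0 CPM (log2 fold change −0.65, adjusted p = 0.0238 by edgeR), and lost its call without siControl replicate 2 or 3 or siDAB2IP replicate 1 (adjusted p = 0.0505 to 0.0912). KAT2B, an acetyltransferase, fell from 12.3 to 6.30 CPM (−0.96, adjusted p = 0.00454), and PARP1 fell from 383 to 248 CPM (−0.63, adjusted p = 0.00651).

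Among genes whose products remove or protect KLF proteins, 15 were tested, and 1 rose and 3 fell (6.55% and 7.65% of all tested genes). WWP1, a ubiquitin ligase known to act on KLF5, fell from 42.9 to 28.9 CPM (log2 fold change −0.57, adjusted p = 0.0234 by edgeR). FBXO32, known to act on KLF4, fell from 88.7 to 45.2 CPM (−0.97, adjusted p = 0.00747), and BTRC fell by 0.79 on the log2 scale (adjusted p = 0.00998). FBXO22 rose (0.37, adjusted p = 0.0353), and FBXW7, which acts on KLF2 and KLF5, did not pass the test (0.34, adjusted p = 0.245). FBXO22 was called in none of 6 fits with 1 library omitted, and WWP1 was not called without siControl replicate 2 or 3 or siDAB2IP replicate 1 (adjusted p = 0.0603 to 0.0909 by edgeR). Protein levels were not measured.

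The kinase pathway known to induce KLF2 and KLF4, from MEKK3 through MEK5 and ERK5 to MEF2, had no called gene without the replicate block. Of all tested genes 14.2% were called, so a lack of calls among so few genes does not set the pathway apart. Its 9 tested genes had log2 fold changes between −0.46 and 0.35, and 1 of them, MEF2D (0.35, adjusted p = 0.0739), had an unadjusted p under 0.05 by edgeR. DESeq2 called 0 of them. With the replicate number as a block, 1 of the 9 rose and 1 fell.

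Genes described as KLF targets in some cell type moved in both directions. Of 34 such genes tested, 11 rose and 3 fell, with a median log2 fold change of 0.08. Of all tested genes 6.55% rose and 7.65% fell. With the replicate number as a block, 12 rose and 6 fell, whereas leaving out siControl replicate 2 left 6 risers and 1 that fell, and leaving out siControl replicate 1 left 7 risers. KRT4 and KRT13, keratins of stratified epithelia described as targets of KLF4 or KLF5, rose by 1.59 and 1.63 on the log2 scale (adjusted p = 0.000482 and 0.00111 by edgeR). CDKN1A, the cell cycle inhibitor p21 that KLF4 and KLF6 are known to induce, rose from 148 to 521 CPM (1.81, adjusted p = 0.00135). THBD, thrombomodulin, a target of KLF2 in endothelium, rose from 93.4 to 161 CPM (0.78, adjusted p = 0.00205), and PDGFA, a target of KLF5, rose from 21.4 to 35.3 CPM (0.72, adjusted p = 0.00869), a call lost without siControl replicate 2 (adjusted p = 0.0503). TGFBR1, a TGF-β receptor, fell from 66.3 to 28.8 CPM (−1.20, adjusted p = 0.00514), and S1PR1, a target of KLF2 in T cells, fell from 10.1 to 5.90 CPM (−0.78, adjusted p = 0.045) but lost its call without siControl replicate 1 or 2 or siDAB2IP replicate 2 or 3. No KLF protein was measured or perturbed.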

How the data were processed

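RNA-Seq of 3 siControl and 3 siDAB2IP MCF10A libraries was used. Per the submitters' processing notes, STAR 2.6.1d, featureCounts 1.5.0-p3, DESeq2 1.20.0, edgeR 3.24.3 and the build hg38 were involved. The deposited counts give the reads on each gene in each library, as whole numbers without normalization, and the deposited FPKM divide these by gene length and library total. No file gave the strand setting of the counting. The counts were tested with edgeR 4.0.16 in R 4.3.3 (genes kept by filterByExpr, TMM scaling, glmQLFit and glmQLFTest without covariates, Benjamini-Hochberg adjustment over 15430 genes, called at an adjusted p under 0.05). Standard errors were derived from the F statistic. CPM are TMM-normalized. Exact permutation tests are two-sided (scipy 1.17.1 in Python 3.11.15). Deviations by library used log2 CPM with a prior count of 2. Positions are those of the tables, and those of the 10 genes equal those of GENCODE 29. Promoter windows are from RefSeq (GRCh38.p14).

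The 10 genes and the lists of other genes were chosen with earlier results of these data known, and the scripts were checked on simulated counts. Named were the 10 genes, DAB2IP, each tested KLF or SP gene, and called genes of the other lists (at most 10 by p). Of the lists with more called genes than are described, examples were chosen after their values were seen, as were the uncalled CTBP1, CTBP2, SIN3A, SIN3B, FBXW7 and MEF2D.

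The labels number the replicates 1 to 3 in both groups. Deviations of log2 CPM from the group means were correlated over genes. The correlations were 0.265, 0.155 and 0.255 between equally numbered libraries and −0.278 to 0.0207 between others. Deviations within a group sum to 0, so these correlations are not independent of each other. The numbers were treated as pairs only in the replicate block and in the ratios between equally numbered libraries. The main fit and the exact permutation tests did not use pairs. That equal numbers mark pairs is an inference, since the labels do not say what a number stands for. Blocked values are given where they change a count of calls or a call of a named gene. For CTBP1, CTBP2, SIN3A, SIN3B, FBXW7 and MEF2D only the main fit was read, so their calls with the block are not given. The alternatives were RLE scaling, library size only, DESeq2 1.42.0, protein-coding genes alone, no filter on low counts, a minimum of 10 counts per library, limma 3.58.1 on log2(FPKM + 1) or log2(FPKM + 0.1), the replicate block, a threshold of 0.01 and leaving out each library. Leaving out both libraries numbered 3, the MEF2 search and the alternatives for the other lists were chosen after seeing the data.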

Additional observations from a re-analysis of the deposited data

How the results depend on the processing

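No log2 fold change of the 9 tested KLF genes changed sign under any alternative (153 values, of which 119 kept their side of the threshold, 26 lost a call and 8 gained one). limma on log2(FPKM + 1) with all genes kept none of the 4 calls (KLF4 −0.49, KLF7 0.34, KLF11 −0.46, KLF16 0.35; 378 genes called in all, against 2192), and an adjusted p under 0.01 kept none either (622 genes in all). KLF11 was also lost with library size only (−0.61), limma on log2(FPKM + 1) (−0.46) and limma on log2(FPKM + 0.1) (−0.64; 1417 genes in all) among genes with a mean of at least 1 FPKM, so that 1 KLF gene fell in each. KLF16 was lost without the filter (0.37) and without both libraries numbered 3 (0.34), so that 1 rose in each. KLF13 was called by DESeq2 (−0.56), without the filter (−0.57), with at least 10 counts in every library (−0.58), among protein-coding genes (−0.56), with the replicate block (−0.59) and without both libraries numbered 3 (−0.43). The replicate block called 3233 genes and changed no other call among the 9 genes. With 1 library left out, log2 fold changes ranged from −0.75 to −0.53 for KLF4, 0.39 to 0.46 for KLF7, −0.83 to −0.49 for KLF11, −0.74 to −0.38 for KLF13 and 0.34 to 0.42 for KLF16, and, of the genes without a call, −0.29 to −0.064 for KLF3, −0.43 to −0.17 for KLF5, −0.38 to −0.21 for KLF6 and −0.15 to −0.041 for KLF10. From 0 to 2 genes then rose and 0 to 2 fell, and 723 to 2524 genes were called in all, the fewest when siControl replicate 2 (723), 3 (1048) or 1 (1186) was omitted. The differences in ratio kept their sign in all alternatives (KLF6/KLF7 −0.82 to −0.59, KLF10/KLF11 0.35 to 0.69, KLF13/KLF16 −1.19 to −0.74, and the less stable KLF2/KLF4 −1.64 to −0.39, −1.64 without siControl replicate 1, and KLF4/KLF5 −0.58 to −0.097, −0.58 without siDAB2IP replicate 3). SP2 ranged from −0.0047 (siControl replicate 2 omitted) to 0.22 with 1 library left out. The cause of these changes was not tested. With 3 libraries a group and a common biological coefficient of variation of 14.8%, small changes of KLF3, KLF5, KLF6 and KLF10 may not have been detectable, and the counts of KLF2 were too few for a test.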
